A study of Mus musculus with 2 samples.

Results

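Mature dendritic cells (DCs) that held no Il12b and little or no Ccl22 were taken from single-cell RNA-seq of mouse spleen. Members were chosen by the measured counts of 6 genes. A cell was a member if it held at least 2 unique molecular identifiers (UMIs, each standing for 1 captured RNA molecule) of Ccr7 and at least 1 of Fscn1, no Il12b, fewer than 3 of Ccl22, no Cd3e and fewer than 3 of Cd79a. By this rule 243 of 6393 cells were members, 114 of 3308 in wild-type (WT) replicate 1 and 129 of 3085 in WT replicate 2. Both samples are splenic CD11c+ cells of Wild-Type mice. They were enriched with magnetic CD11c beads, tagged and loaded together on a BD Rhapsody cartridge. No agent, infection or altered allele is named for them, and how many mice made up a sample is not stated in the sources used. The study's methods give adult mice of both sexes for its experiments, with no age for these samples. The study asked how B cells shape DCs and CD8+ T-cell responses. Samples of other genotypes were not analysed here, so the comparisons below are between cell groups within the same pair of samples.

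Conventional DCs of the spleen fall into cDC1s, which cross-present antigen to CD8+ T cells, and cDC2s, which mainly prime CD4+ T cells. When either kind matures it takes up less antigen, raises MHC and costimulatory molecules, and turns on Ccr7, the receptor for the chemokines of the T-cell zone, and Fscn1, which bundles actin in the dendrites of mature DCs. Il12b encodes the p40 subunit shared by IL-12 and IL-23. Ccl22 encodes a chemokine that attracts CCR4-bearing T cells.

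Members were set against 3 other groups of cells of the same samples. Resident cDC2s held at least 2 UMIs of Clec4a4, or of Clec10a and Cd209a together, under 2 of Ccr7 and no Clec9a (749 and 610 cells in replicates 1 and 2). Resident cDC1s held at least 2 UMIs of Clec9a and under 2 of Ccr7 (1121 and 966 cells). Mature DCs with Il12b or Ccl22 passed the same gate on Ccr7, Fscn1, Cd3e and Cd79a as the members, with at least 1 UMI of Il12b or 3 of Ccl22 (31 and 49 cells). UMIs were summed per sample and group and are given as counts per 1000000 UMIs of the sum (CPM), always with replicate 1 first. The 8 sums entered 1 edgeR quasi-likelihood fit, and a gene was called at a Benjamini-Hochberg adjusted p under 0.05 over 12178 genes. Log2 fold changes (log2 FC) are given with the standard error (SE) after the ± sign and are positive where members were higher. The 10 genes of the gates are described without a test. Genes that accompany Ccr7 or Il12b within a cell were drawn in by the gate together with them, so an adjusted p measures a difference against the spread between the 2 samples and not its independence from the rule.

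The libraries held 46953398 and 43137746 UMIs, with medians of 11869.5 and 11241 UMIs per cell. They shared 0 cell indexes, and a doublet caller marked 0.939% of the cells, 1 of them a member. Members made up 3.45% (95% exact binomial interval 2.85 to 4.13) and 4.18% (3.50 to 4.95) of the cells, 3.81% ± 0.520 (SD, n = 2). The share was lower, 2.69%, when every cell was thinned to 5000 UMIs, and 2.38% when the gate asked for 4 UMIs of Ccr7 and 2 of Fscn1. A median member held 9842 and 9812 UMIs. A median mature DC with Il12b or Ccl22 held 10059 and 13346 UMIs. The intervals cover counting error only.

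Summed over cells, the members held all 5 markers of mature DCs, of which the gate required Ccr7 and Fscn1 in each cell. Ccr7 was at 834 and 942 CPM in members, 1836 and 2405 CPM in mature DCs with Il12b or Ccl22, and 4.01 and 5.64 CPM in resident cDC2s, and Fscn1 was at 1457 and 1276, 3445 and 2969 and 36.9 and 49.5 CPM, as the gates set them. Slco5a1, an organic anion transporter family gene, was at 285 and 349 CPM in members, 274 and 440 CPM in the other mature DCs and 14.3 and 11.96 CPM in cDC2s. Dkk2, a secreted modulator of Wnt signalling, was at 124 and 156 CPM in members and 1.52 and 0.941 CPM in cDC2s, with 197 and 25.1 CPM in the other mature DCs. There it rested on single cells, with 45 of 76 UMIs in 1 of 31 cells of replicate 1 and 16 of 18 UMIs in 1 of 49 cells of replicate 2, and without those cells it was at 83.4 and 2.83 CPM. In members a UMI of Dkk2 was found in 31 of 114 and 27 of 129 cells. There 3 cells of each sample held 46 of 160 and 90 of 214 UMIs. Without the member that held most, Dkk2 was at 110 and 129 CPM. Socs2, an inhibitor of cytokine receptor signalling, was at 216 and 253 CPM in members, 644 and 589 CPM in the other mature DCs and 1.08 and 1.61 CPM in cDC2s. These 3 genes were listed as markers from earlier results on these data, so their levels are a description.

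Summed levels of Socs2 and Cacnb3 were higher in members with more UMIs of Ccr7, a gene of the rule. Such sums do not tell a grade within each cell from a mix of cells. In the 33 and 43 members with 2 or 3 UMIs of Ccr7, Socs2 was at 34.1 and 31.1 CPM. In the 37 and 42 members with 4 to 9 it was at 168 and 117 CPM, and in the 44 and 44 members with 10 or more it was at 367 and 607 CPM. Cacnb3, a calcium channel subunit, went from 199 and 162 CPM through 372 and 320 CPM to 871 and 771 CPM over the same steps. The cDC2 gene Sirpa did not follow these steps, with 276 and 388, 416 and 415, then 305 and 232 CPM. At the edge of the gate, the 23 and 31 members with exactly 2 UMIs of Ccr7 held 7.50 and 5.75 CPM of Socs2, against 37.5 and 8.51 CPM in the 36 and 48 cells that missed the rule with 1 UMI of Ccr7. Cacnb3 was at 154 and 86.3 CPM in the same members against 86.8 and 35.5 CPM just outside, and Apol7c at 867 and 227 CPM against 371 and 111 CPM. The 14 and 21 members with 1 UMI of Fscn1 held 35.9 and 0 CPM of Socs2, against 33.5 and 9.86 CPM in the 82 and 92 cells that missed the rule with 0 UMIs of Fscn1. Slco5a1 was at 120 and 82.8 CPM in these members against 54.6 and 40.3 CPM just outside, while Cxcl16, a chemokine gene, was at 138 and 50.6 CPM against 229 and 171 CPM. Members at the edge thus held less Socs2 and Cacnb3 than members with 10 or more UMIs of Ccr7, and which side of the edge was higher differed between genes. On the Ccl22 side, 106 and 118 members held 0 UMIs and 8 and 11 held 1 or 2. Those with 1 or 2 UMIs of Ccl22 had 8689 and 3429 CPM of Apol7c, an apolipoprotein L gene of DCs, against 1327 and 1131 CPM in members at 0.

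**Figure D1:**
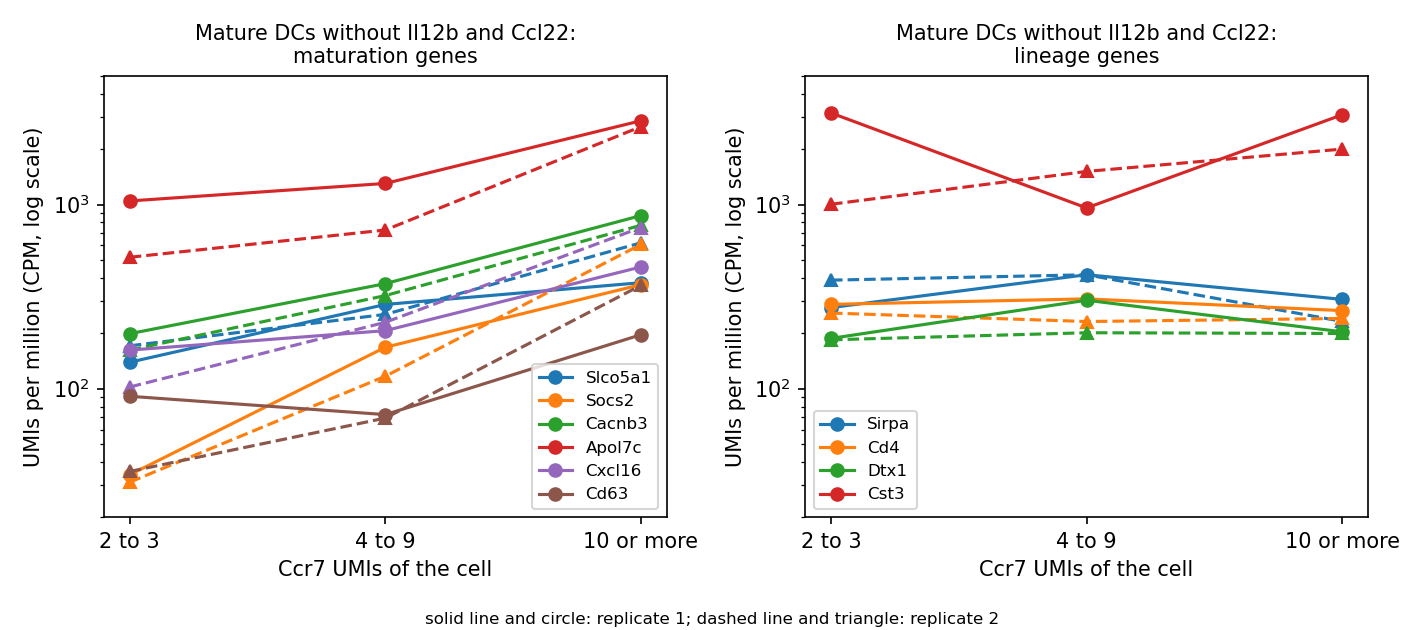
CPM (log scale) of 6 maturation genes (left) and 4 lineage genes (right) in members with 2 to 3, 4 to 9 and 10 or more Ccr7 UMIs, with solid lines for replicate 1 and dashed lines for replicate 2. Socs2 is at 34.1 and 31.1 CPM in the lowest class and 367 and 607 CPM in the highest, while Cd4 stays between 232 and 307 CPM.

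The share of cells with a UMI was counted as well. Counted in cells thinned to 5000 UMIs, with the rules applied to the thinned counts, Socs2 was found in 43 of 77 and 44 of 79 members (55.8% and 55.7%), in 16 of 18 and 35 of 37 mature DCs with Il12b or Ccl22 (88.9% and 94.6%), and in 3 of 554 and 2 of 418 cDC2s (0.542% and 0.478%). B cells were gated on at least 3 UMIs of Cd79a and no Cd3e, Fscn1 or Clec9a. In these cells, which should lack the gene, a UMI was found in 0 of 49 (exact binomial upper limit 7.25%) and in 2 of 135 (1.48%). Before thinning, Socs2 was found in 52 of 114 and 51 of 129 members (45.6% and 39.5%), at median depths of 9842 and 9812 UMIs. A UMI was then found in 0 of 61 B cells (upper limit 5.87%) and in 1 of 173 (0.578%), at 7418 and 6665 UMIs. These limits hold for cells with a UMI, not for cells that express the gene. Members with and without a UMI of Socs2 were thus both common. The share in members was above that in B cells, but the gates asked for Fscn1 in members and barred it in B cells.

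Against resident cDC2s, members carried higher RNA for the machinery of DC maturation. Of 12178 genes tested, 1428 (11.7%) were higher and 1134 (9.31%) lower in members, and the median over all genes was -0.03. Of 52 genes listed as mature DC genes beside the markers above, 49 were tested, 46 were higher, 0 were lower and their median was 2.73. The list was drawn up with earlier results of these data known, so its count is not independent evidence of a direction. Cacnb3 was at 538 and 420 CPM in members and 4.98 and 3.36 CPM in cDC2s (log2 FC 6.88 ± 0.22, adjusted p = 1.8e-08). Adcy6, an adenylyl cyclase that makes cyclic AMP, was at 114 and 93.1 CPM against 1.30 and 0.941 CPM (log2 FC 6.55 ± 0.31, adjusted p = 1.6e-07). Adora2a, an adenosine receptor that signals through cyclic AMP, was at 102 and 115 CPM against 2.38 and 2.82 CPM (log2 FC 5.46 ± 0.21, adjusted p = 3.2e-08). Cacnb3, Adcy6 and Adora2a were picked by fold change, so their separation from cDC2s is a description. Apol7c was at 1892 and 1303 CPM against 31.0 and 29.3 CPM (log2 FC 5.80 ± 0.22, adjusted p = 3.2e-08). It was not particular to mature DCs, with a UMI in 686 of 1121 and 593 of 966 resident cDC1s. In members a UMI of Apol7c was found in 62 of 114 and 70 of 129 cells. The cDC1s were deeper, at medians of 17060 and 18469 UMIs against 9842 and 9812. Anxa3, an annexin, was at 289 and 311 CPM against 11.4 and 5.38 CPM (log2 FC 5.20 ± 0.24, adjusted p = 1.2e-07), and Marcksl1, a protein kinase C substrate at the cell cortex, at 894 and 928 CPM against 110 and 111 CPM (log2 FC 3.12 ± 0.12, adjusted p = 2.9e-08).

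Among the 12 genes with the largest rise over cDC2s, Insm1, a zinc-finger factor known from neuroendocrine cells, was at 142 and 121 CPM in members and 0.108 and 0.672 CPM in cDC2s (log2 FC 8.51 ± 0.31, adjusted p = 2.3e-08), with 8.50 from replicate 1 and 6.98 from replicate 2 alone. It was not particular to members, with a UMI in 18 of 31 and 24 of 49 mature DCs with Il12b or Ccl22, against 22 of 114 and 30 of 129 members. Prnp, the prion protein gene, was at 120 and 128 CPM against 3.47 and 1.88 CPM (log2 FC 5.56 ± 0.28, adjusted p = 2.5e-07). Lad1, a filament-anchoring protein, was at 188 and 156 CPM against 1.52 and 0.672 CPM (log2 FC 7.29 ± 0.26, adjusted p = 2.3e-08), with 6.70 from replicate 1 and 7.34 from replicate 2 alone. These genes were near absent from cDC2s. Pla2g4f, a cytosolic phospholipase A2, was at 92 and 70 UMIs in members and 1 and 1 in the far larger sums of cDC2s, too few there for a fold. Crispld2, a secreted lipopolysaccharide-binding protein, differed between the samples of members, at 63.6 and 220 CPM, and was at 1.73 and 2.55 CPM in cDC2s (log2 FC 6.14 ± 0.56, adjusted p = 1.7e-05), with 4.98 from replicate 1 and 6.27 from replicate 2 alone. In mature DCs with Il12b or Ccl22 a UMI of Crispld2 was found in 4 of 31 and 10 of 49 cells. The other 7 were Ankrd33b, Dscaml1, Cacnb3, Adcy6, Apol7c and the markers Socs2 and Dkk2.

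**Figure D2:**
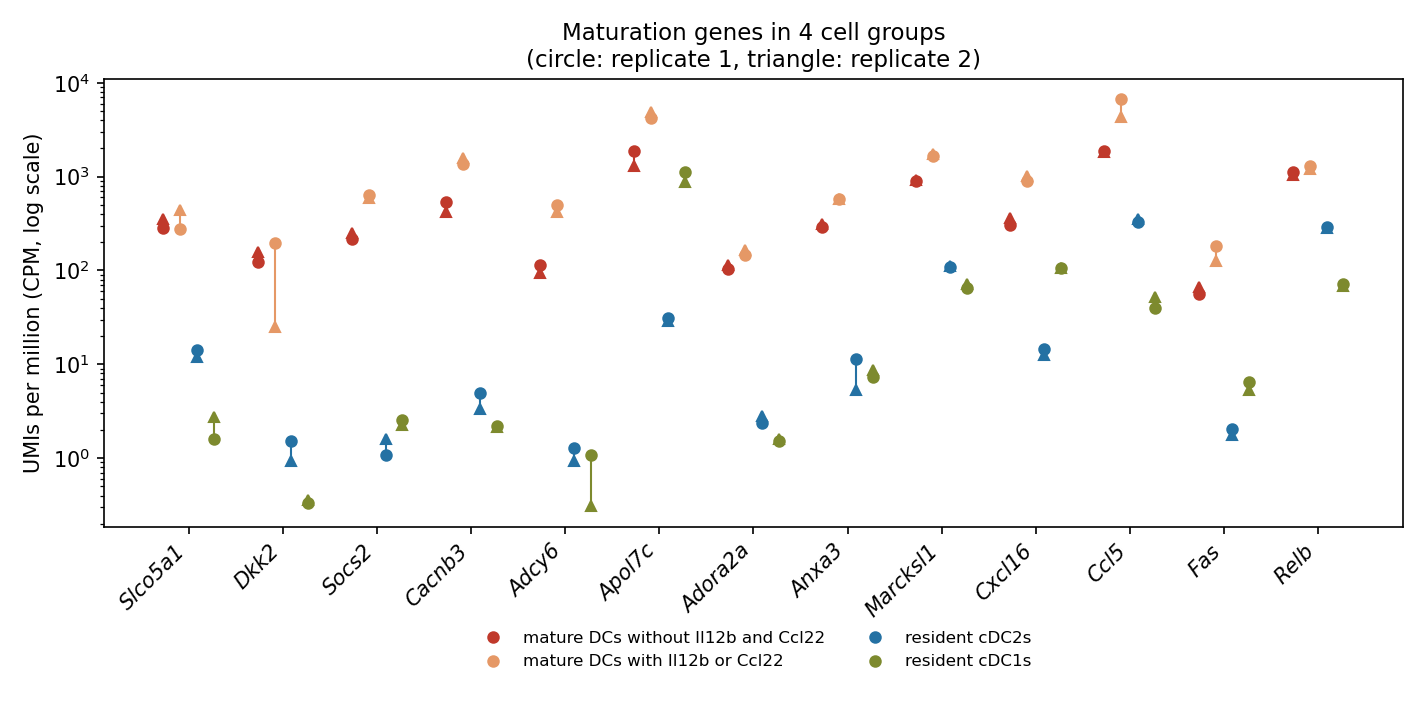
CPM (log scale) of 13 maturation genes in members, mature DCs with Il12b or Ccl22, resident cDC2s and resident cDC1s; the circle is replicate 1 and the triangle replicate 2. For Cacnb3 the members lie at 538 and 420 CPM, between 1363 and 1590 CPM in the other mature DCs and 4.98 and 3.36 CPM in cDC2s.

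The NF-kB pathway, whose RelB and p52 arm is needed for DC maturation, was higher in members than in cDC2s for 20 of 27 tested genes and lower for 1. Relb was at 1128 and 1052 CPM against 290 and 286 CPM (log2 FC 1.99 ± 0.09, adjusted p = 1.3e-07). Traf1, an adaptor of TNF receptors, was at 708 and 734 CPM against 256 and 259 CPM (log2 FC 1.55 ± 0.10, adjusted p = 1.3e-06), and the ubiquitin ligase Birc2 at 326 and 330 CPM against 69.7 and 66.8 CPM (log2 FC 2.33 ± 0.12, adjusted p = 3.8e-07). The exception was Nfkb1, which encodes p50 and its precursor, at 430 and 402 CPM against 663 and 652 CPM (log2 FC -0.59 ± 0.10, adjusted p = 0.0012). In the list of cytokine receptors, STATs and SOCS genes, 16 of 29 tested were higher and 3 lower, beside 11.7% and 9.31% of all genes. Il15ra, which presents IL-15 to neighbouring lymphocytes, was at 39.6 and 19.6 CPM against 7.91 and 5.78 CPM (log2 FC 2.15 ± 0.32, adjusted p = 0.00064).

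Costimulatory ligands were higher for 7 of 14 tested and lower for 3, beside 11.7% higher and 9.31% lower over all genes. Icosl, the ligand of ICOS on T cells, was at 972 and 976 CPM in members and 302 and 301 CPM in cDC2s (log2 FC 1.76 ± 0.10, adjusted p = 5.2e-07). Cd83, a surface marker of mature DCs, was at 1551 and 1741 CPM against 526 and 727 CPM (log2 FC 1.47 ± 0.17, adjusted p = 8.7e-05), and Cd40, the receptor for T-cell CD40L, at 111 and 126 CPM against 61.4 and 51.2 CPM (log2 FC 1.14 ± 0.17, adjusted p = 0.00054). The B7 molecules were closer to the cDC2 level. Cd80 was at 244 and 268 CPM against 165 and 188 CPM (log2 FC 0.61 ± 0.13, adjusted p = 0.0052), and Cd86 was not called (341 and 370 against 254 and 320 CPM, log2 FC 0.38 ± 0.17, adjusted p = 0.14). Of the checkpoint and tolerance genes, 8 of 23 were higher and 5 lower. Fas, the death receptor, was at 56.6 and 67.0 CPM against 2.06 and 1.75 CPM (log2 FC 5.07 ± 0.26, adjusted p = 2.7e-07), and Cd200, an inhibitory ligand for myeloid cells, at 106 and 106 CPM against 8.34 and 4.30 CPM (log2 FC 4.10 ± 0.25, adjusted p = 7.5e-07). Il4i1, an amino acid oxidase that restrains T cells, was at 393 and 352 CPM against 43.2 and 28.2 CPM (log2 FC 3.44 ± 0.22, adjusted p = 1.1e-06), and Cd274, encoding PD-L1, at 484 and 386 CPM against 226 and 216 CPM (log2 FC 1.05 ± 0.16, adjusted p = 0.00068).

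Secreted factors and migration receptors followed. Chemokines and cytokines were higher for 8 of 19 tested and lower for 2, beside 11.7% higher and 9.31% lower over all genes. Ccl5, a chemokine that attracts T cells, was at 1851 and 1849 CPM in members and 330 and 350 CPM in cDC2s (log2 FC 2.52 ± 0.16, adjusted p = 1.2e-06). Cxcl16, which encodes the ligand of CXCR6, was at 302 and 362 CPM against 14.5 and 12.6 CPM (log2 FC 4.68 ± 0.17, adjusted p = 2.3e-08), and Il15 at 106 and 64.8 CPM against 12.7 and 10.5 CPM (log2 FC 2.94 ± 0.25, adjusted p = 9.8e-06). A UMI of Cxcl16 was also found in 607 of 1121 and 524 of 966 resident cDC1s, against 65 of 114 and 77 of 129 members. Ccl5, Cxcl16 and Il15 were picked by fold change or after their values were seen. Among chemokine and migration receptors other than Ccr7, 5 of 19 were higher and 0 lower. Gpr183, the oxysterol receptor EBI2 that places cDC2s in the bridging channels of the spleen, was at 516 and 585 CPM against 257 and 281 CPM (log2 FC 1.10 ± 0.11, adjusted p = 3.6e-05). Ptger4, a prostaglandin E2 receptor, was at 155 and 197 CPM against 44.1 and 40.9 CPM (log2 FC 2.12 ± 0.21, adjusted p = 2.8e-05). Adhesion genes were split, with 8 of 28 higher and 9 lower; the integrin chain Itgb7 was at 55.1 and 42.9 CPM against 177 and 170 CPM (log2 FC -1.75 ± 0.14, adjusted p = 7e-06).

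Genes of MHC class II presentation were called in both directions, while those of class I that were called were higher with 1 exception. Of 25 genes of class II presentation, 4 were higher and 6 lower than in cDC2s, beside 11.7% higher and 9.31% lower over all genes. H2-Aa, a chain of I-A, was at 10490 and 10810 CPM in members and 10850 and 11240 CPM in cDC2s (log2 FC 0.02 ± 0.14, adjusted p = 0.94), and the class II transactivator Ciita at 734 and 675 CPM against 822 and 783 CPM (log2 FC -0.12 ± 0.09, adjusted p = 0.42). March1, the ubiquitin ligase that removes class II from the surface of resting DCs, was lower, at 182 and 148 CPM against 350 and 309 CPM (log2 FC -0.93 ± 0.15, adjusted p = 0.001). Of 31 class I genes, 14 were higher and 1 lower. Nlrc5, the class I transactivator, was at 251 and 308 CPM against 75.9 and 79.8 CPM (log2 FC 1.92 ± 0.16, adjusted p = 7.7e-06), and H2-K1, a classical class I heavy chain, at 2171 and 2173 CPM against 1365 and 1406 CPM (log2 FC 0.72 ± 0.11, adjusted p = 0.00071). H2-M2, a non-classical class I gene of mature DCs, was at 612 and 501 CPM against 23.9 and 30.2 CPM (log2 FC 4.43 ± 0.33, adjusted p = 3.5e-06). Class I genes of this family share sequence, so reads among them may be split by the counting.

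Receptors for antigen uptake were lower for 17 of 31 tested genes and higher for 2. Clec4a2, an inhibitory C-type lectin, was at 27.9 and 33.5 CPM in members and 124 and 138 CPM in cDC2s (log2 FC -2.02 ± 0.20, adjusted p = 3.3e-05), the inhibitory receptor Cd300a at 76.0 and 77.9 CPM against 307 and 301 CPM (log2 FC -1.91 ± 0.15, adjusted p = 5.1e-06), and the sialic-acid receptor Siglece at 24.0 and 18.9 CPM against 118 and 119 CPM (log2 FC -2.40 ± 0.24, adjusted p = 3.4e-05). Ly75, encoding DEC-205, went the other way, at 137 and 138 CPM against 11.5 and 8.60 CPM (log2 FC 3.83 ± 0.23, adjusted p = 7.6e-07). Ly75 was not called between members and resident cDC1s. Interferon-response genes were lower for 18 of 39 and higher for 7. Irf7, the regulator of type I interferon, was at 11.6 and 18.9 CPM against 42.8 and 39.5 CPM (log2 FC -1.35 ± 0.22, adjusted p = 0.0011), while Mx1, an antiviral GTPase, was at 88.4 and 53.1 CPM against 33.4 and 25.3 CPM (log2 FC 1.33 ± 0.22, adjusted p = 0.0013). Toll-like receptors and adaptors were called in both directions, 6 higher and 6 lower of 35, beside 11.7% higher and 9.31% lower over all genes.

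Cell cycle genes were lower for 19 of 38 and higher for 3. Mki67, a marker of dividing cells, was at 112 and 96.8 CPM in members and 268 and 395 CPM in cDC2s (log2 FC -1.60 ± 0.19, adjusted p = 0.00012), and Cdkn1a, the cycle inhibitor p21, at 76.8 and 98.2 CPM against 18.4 and 16.7 CPM (log2 FC 2.39 ± 0.21, adjusted p = 1.6e-05). The Mki67 and Top2a RNA that remained lay in 28 of 114 and 31 of 129 members, and 3 cells of each sample held 188 of 290 and 203 of 291 of those UMIs. Apoptosis and survival genes were higher for 14 of 37 and lower for 5, with the anti-apoptotic Bcl2l1 at 41.1 and 31.3 CPM against 9.31 and 6.99 CPM (log2 FC 2.20 ± 0.27, adjusted p = 0.00015) and the pro-apoptotic Bcl2l11, encoding BIM, at 66.7 and 91.0 CPM against 22.8 and 22.7 CPM (log2 FC 1.87 ± 0.19, adjusted p = 3.3e-05). Glycolysis genes were lower for 6 of 22 and higher for 1. Nuclear oxidative phosphorylation genes were lower for 4 of 37, near the 9.31% of all genes, and higher for 0. Of 24 DC identity genes 7 were higher and 3 lower, among them Flt3, the growth factor receptor of conventional DCs, at 627 and 631 CPM against 420 and 432 CPM (log2 FC 0.63 ± 0.12, adjusted p = 0.0036). LXR targets and cholesterol efflux genes were higher for 4 of 20 and lower for 3, and actin and motility genes higher for 14 of 35 and lower for 9. Genes induced by cell handling were higher for 4 of 25 and lower for 0. Over all genes tested, 11.7% were higher and 9.31% lower.

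Macrophage RNA moved with some of the lower genes. Summed over 8 macrophage markers, members held 107 and 110 CPM, cDC2s 555 and 537 CPM and cDC1s 2408 and 1270 CPM; 7 of the 8 were lower in members than in cDC2s, none was at 0, and their part in the lower genes was not tested. Among the 12 genes with the largest fall, Hmox1, a heme oxygenase, was at 12.4 and 7.28 CPM against 87.4 and 125 CPM (log2 FC -3.37 ± 0.46, adjusted p = 0.00034), with -2.80 from replicate 1 and -4.06 from replicate 2 alone, and the complement gene C1qc at 14.7 and 10.2 CPM against 92.1 and 84.1 CPM (log2 FC -2.76 ± 0.34, adjusted p = 0.00018). Both lost the call in cells thinned to 5000 UMIs, at -1.23 and -0.04. Tgfbi, an extracellular matrix protein outside the marker list, was at 29.5 and 24.0 CPM against 151 and 166 CPM (log2 FC -2.50 ± 0.16, adjusted p = 1.1e-06) and kept the call there at -3.89. Markers of T cells summed to 8.53 and 12.4 CPM in members, of NK cells to 4.65 and 2.91 CPM and of neutrophils to 6.98 and 0.728 CPM. Prf1 and Retnlg were at 0, and Cd3e was at 0 because the rule set it so. Monocyte markers summed to 97.7 and 103 CPM, with Fcgr1 and F13a1 at 0, erythroid markers to 10.9 and 10.2 CPM, and markers of plasmacytoid DCs to 337 and 204 CPM, against 219 and 228 CPM in cDC2s. Markers of B cells summed to 301 and 272 CPM, against 548 and 202 CPM in cDC2s, with Cd79a among them limited by the gate in members only.

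Of 28 cDC2 lineage genes, 12 were not called between members and resident cDC2s, 11 were lower in members and 5 higher. Sirpa, Cd4, Dtx1 and Irf4 were among those not called. Sirpa, the cDC2 surface receptor for CD47, was at 330 and 345 CPM in members, 325 and 298 CPM in cDC2s, 122 and 101 CPM in cDC1s and 36.2 and 41.8 CPM in mature DCs with Il12b or Ccl22. It was not called against cDC2s (log2 FC 0.18 ± 0.12, adjusted p = 0.32) and was higher than in cDC1s (log2 FC 1.58 ± 0.12, adjusted p = 1.9e-06) and than in the other mature DCs (log2 FC 2.85 ± 0.19, adjusted p = 5.2e-06). Cd4, carried by most splenic cDC2s, was at 284 and 243 CPM, against 240 and 270, 51.8 and 56.9 and 18.1 and 39.0 CPM in cDC2s, cDC1s and the other mature DCs. It was not called against cDC2s (log2 FC 0.11 ± 0.15, adjusted p = 0.65) and was higher than in the other mature DCs (log2 FC 2.83 ± 0.26, adjusted p = 2.4e-05), with 3.81 from replicate 1 and 2.39 from replicate 2 alone. Dtx1, a Notch target, was at 229 and 195 CPM, against 247 and 256, 13.2 and 16.3 and 31.0 and 18.1 CPM in the same order, with no call against cDC2s (log2 FC -0.18 ± 0.14, adjusted p = 0.41) and a call against the other mature DCs (log2 FC 2.97 ± 0.25, adjusted p = 1.5e-05). A UMI of Dtx1 was also found in 37 of 61 and 77 of 173 B cells, and Notch2 and Hes1 of the same list were lower in members than in cDC2s. Irf4, the transcription factor of cDC2s, was at 89.2 and 90.2 CPM, against 80.6 and 92.1, 11.8 and 16.1 and 36.2 and 22.3 CPM, also with no call against cDC2s (log2 FC 0.13 ± 0.17, adjusted p = 0.66). Beside the other mature DCs Irf4 was higher (log2 FC 1.47 ± 0.30, adjusted p = 0.0053), but not past the threshold in cells thinned to 5000 UMIs (1.28).

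Of 28 cDC2 lineage genes, 5 were higher and 11 lower in members than in resident cDC2s, and 20 were higher and 1 lower than in mature DCs with Il12b or Ccl22. Over all genes these shares were 11.7% and 9.31% against cDC2s, and 8.62% and 9.48% against the other mature DCs. Zeb2, a transcription factor of cDC2s and other myeloid cells, was above the cDC2 level, at 425 and 415 CPM against 233 and 227 CPM (log2 FC 0.94 ± 0.10, adjusted p = 8.1e-05), and so was the membrane protein gene Tmem176b, at 1726 and 1684 CPM against 609 and 550 CPM (log2 FC 1.63 ± 0.11, adjusted p = 2.2e-06). Cd7, a receptor of the immunoglobulin family, was below it, at 314 and 370 CPM against 633 and 677 CPM (log2 FC -0.86 ± 0.14, adjusted p = 0.0013), and still above the other mature DCs at 28.4 and 13.9 CPM (log2 FC 3.92 ± 0.27, adjusted p = 5.4e-06, with 3.31 from replicate 1 and 4.46 from replicate 2 alone). Itgam, encoding CD11b, was at 42.7 and 15.3 CPM against 140 and 121 CPM in cDC2s (log2 FC -2.12 ± 0.30, adjusted p = 0.00039, with -1.72 from replicate 1 and -2.97 from replicate 2 alone). The genes used to gate the cDC2s were present in members at a lower level, Clec4a4 at 59.0 and 67.7 CPM against 177 and 170 CPM and Cd209a at 40.3 and 26.2 CPM against 366 and 343 CPM, and Clec4a4 was at 5.17 and 2.78 CPM in the other mature DCs.

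The cDC1 lineage genes that were called were, with 1 exception each, lower than in resident cDC1s and higher than in resident cDC2s. Of 26 tested cDC1 lineage genes, 23 were lower and 1 higher than in resident cDC1s, where 18.8% of all genes were lower and 18.3% higher. Against cDC2s 14 of the 26 were higher and 1 lower, beside 11.7% and 9.31% of all genes, with a median of 1.02 beside -0.03 over all genes. Compared with the other mature DCs, 12 were lower and 1 higher, beside 9.48% lower and 8.62% higher over all genes. Summed over 7 cDC1 markers, members held 645 and 419 CPM, cDC2s 216 and 193 CPM, the other mature DCs 874 and 1034 CPM and cDC1s 5737 and 5923 CPM. The gates set 1 of these markers, Clec9a, at 0 in cDC2s and required it in cDC1s, with no limit in either kind of mature DC. Cells with Clec9a were thus barred from the cDC2s, and the part of this in the higher cDC1 genes was not tested. In each sample 3 members held 93 of 139 and 39 of 72 UMIs of Clec9a, and 96 of 114 and 18 of 41 of Naaa. Cd8a, carried by splenic cDC1s, was at 57.4 and 75.7 CPM in members, 543 and 586 CPM in cDC1s and 554 and 689 CPM in the other mature DCs (log2 FC -3.47 ± 0.20, adjusted p = 2.9e-06 against these). Cst3, a cysteine protease inhibitor abundant in cDC1s, was at 2456 and 1509 CPM, against 13480 and 14150 CPM in cDC1s, 10620 and 12230 CPM in the other mature DCs and 1349 and 1374 CPM in cDC2s (log2 FC -2.76 ± 0.20, adjusted p = 6.2e-06 against the other mature DCs). Both genes were picked by fold change. Irf8, the transcription factor of cDC1s, was at 157 and 65.5 CPM, against 1514 and 1618, 290 and 315 and 29.9 and 29.7 CPM in cDC1s, the other mature DCs and cDC2s (log2 FC -3.85 ± 0.27, adjusted p = 8.2e-07 against cDC1s, with -3.41 from replicate 1 and -4.79 from replicate 2 alone). In replicate 1, 3 of 114 members held 118 of 203 UMIs of Irf8. The chemokine receptor Xcr1 was at 79.1 and 9.46 CPM in members, and 3 cells held 100 of the 102 UMIs of replicate 1. Id2 and Batf3, which cDC1s need, were above cDC2s, Id2 at 997 and 883 CPM against 326 and 345 CPM (log2 FC 1.55 ± 0.11, adjusted p = 2.8e-06) and Batf3 at 145 and 158 CPM against 79.5 and 73.1 CPM (log2 FC 1.06 ± 0.12, adjusted p = 0.00011).

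**Figure D3:**
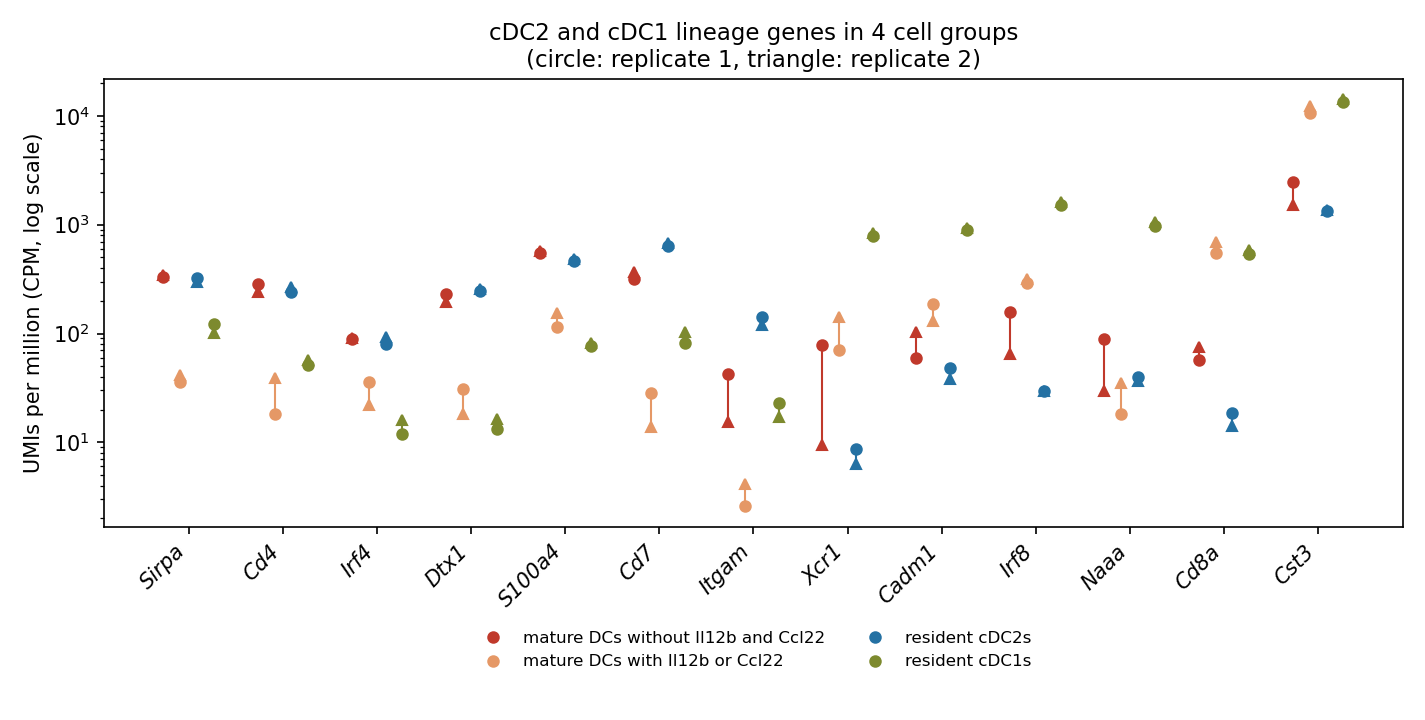
CPM (log scale) of 7 cDC2 genes (left) and 6 cDC1 genes (right) in the 4 cell groups, circle for replicate 1 and triangle for replicate 2. For Sirpa the members at 330 and 345 CPM overlie the resident cDC2s at 325 and 298 CPM, and the mature DCs with Il12b or Ccl22 lie at 36.2 and 41.8 CPM.

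The lineage markers were also counted cell by cell. UMIs of 4 cDC2 markers (Sirpa, Itgam, Irf4, Cd4) and 6 cDC1 markers (Xcr1, Cadm1, Irf8, Batf3, Tlr3, Naaa) were summed in each cell. In members, 77 of 114 and 81 of 129 cells held more UMIs of the cDC2 panel, and 30 and 43 held more of the cDC1 panel. In mature DCs with Il12b or Ccl22, 2 of 31 and 8 of 49 held more of the cDC2 panel, and 25 and 40 more of the cDC1 panel. At 5000 UMIs per cell the cDC2 panel led in 46 of 77 and 40 of 79 members and in 0 of 18 and 3 of 37 of the others. Cells of neither lineage were not evenly split either, since the cDC1 panel led in 41 of 61 and 116 of 173 B cells and the cDC2 panel in 26 of 40 and 80 of 161 T cells. These T cells held at least 2 UMIs of Cd3e and no Cd79a, and both kinds were gated to hold no Fscn1 or Clec9a. In resident cDC1s the cDC2 panel led in 192 of 1121 and 174 of 966 cells, and in resident cDC2s in 657 of 749 and 545 of 610. The panels differ in their number of genes, and Batf3 of the cDC1 panel was itself higher in members than in cDC2s, so which panel leads does not give the lineage of a cell. For Sirpa alone at 5000 UMIs, 50 of 77 and 45 of 79 members held a UMI (64.9% and 57.0%), against 1 of 18 and 7 of 37 of the other mature DCs (5.56% and 18.9%) and 2 of 49 and 8 of 135 B cells (4.08% and 5.93%). Before thinning, the members' shares were 78.1% and 78.3%, and those of B cells 9.84% and 7.51%.

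**Figure D4:**
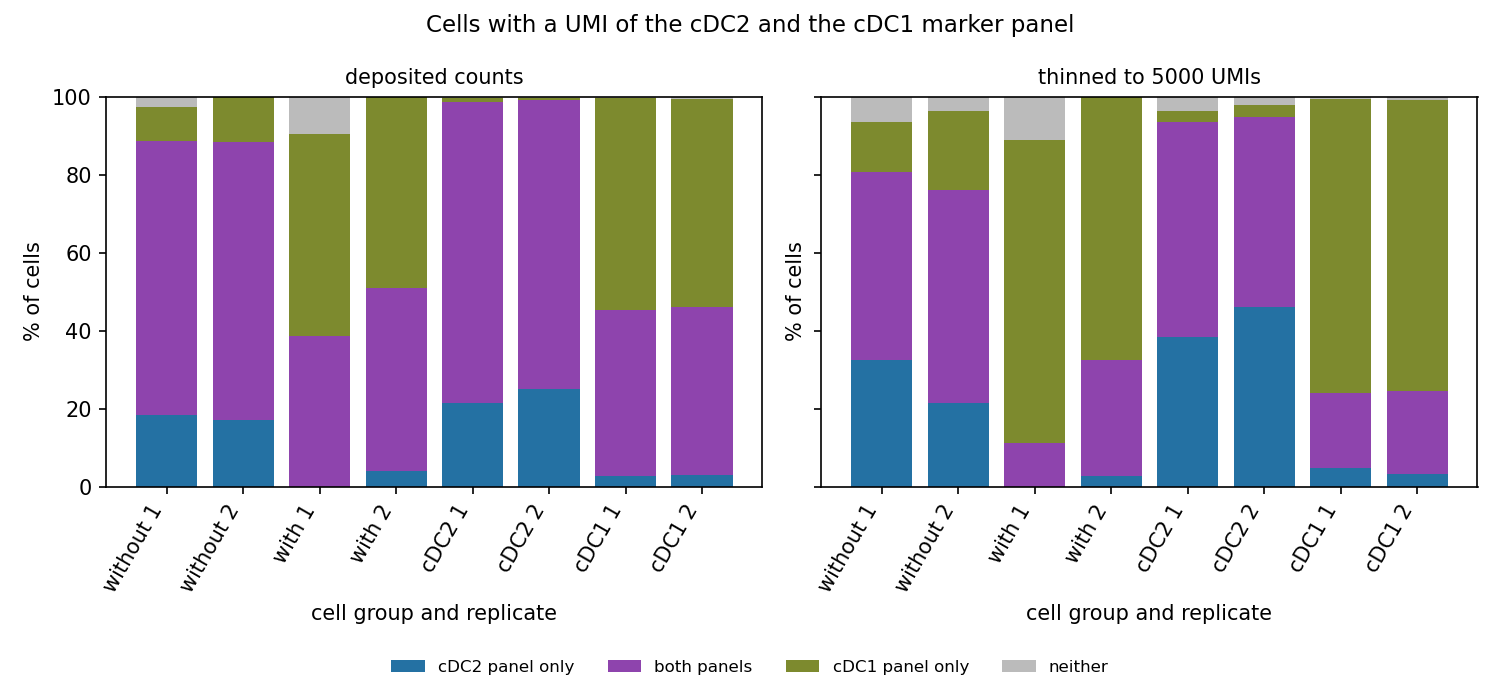
Share of cells (%, stacked to 100) with a UMI of the cDC2 panel only, of both panels, of the cDC1 panel only or of neither, for each group and replicate, from the deposited counts (left) and after thinning to 5000 UMIs (right). No cell of the mature DCs with Il12b or Ccl22 in replicate 1 held the cDC2 panel only, against 21 of 114 members of replicate 1.

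The direct comparison of the 2 kinds of mature DC called 1050 genes higher (8.62%) and 1155 lower (9.48%) in members. The rule split these cells by Il12b (0 and 0 CPM in members, 1042 and 1545 CPM in the others) and Ccl22 (9.31 and 8.73 and 432 and 647 CPM), and a deeper cell more readily shows a UMI of either. In cells thinned to 5000 UMIs the counts were 413 higher and 389 lower. Scaled by library size alone they were 1809 higher and 803 lower, so that 69.3% of calls were higher against 47.6%, and the median of all genes moved from 0.12 to 0.36. The fold changes given for this comparison are not centred on that median.

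The listed mature DC genes, without the markers, were lower in members than in mature DCs with Il12b or Ccl22 for 35 of 49 tested and higher for 2, with a median of -1.23. Cacnb3 was at 1363 and 1590 CPM in the others (log2 FC -1.86 ± 0.16, adjusted p = 1.7e-05), Adcy6 at 497 and 418 CPM (log2 FC -2.36 ± 0.21, adjusted p = 1.9e-05), Cxcl16 at 887 and 1015 CPM (log2 FC -1.76 ± 0.14, adjusted p = 1.3e-05) and Ccl5 at 6636 and 4303 CPM (log2 FC -1.77 ± 0.16, adjusted p = 2.2e-05). Of the NF-kB pathway 14 of 27 were lower and 1 higher, beside 9.48% lower and 8.62% higher over all genes. Cd40 was at 308 and 381 CPM (log2 FC -1.80 ± 0.18, adjusted p = 4.4e-05) and Fas at 181 and 125 CPM (log2 FC -1.49 ± 0.21, adjusted p = 0.00052), the latter without a call after thinning (-0.86). Summed over each group, members held less of these RNAs than the other mature DCs while holding more than cDC2s. A median member held 6 and 6 UMIs of Ccr7, against 15 and 30 in the other mature DCs, and the part of this in the differences was not tested. Cd80, Cd86 and Cd274 were not called between the kinds, with Cd80 at 191 and 170 CPM in the others (log2 FC 0.29 ± 0.15, adjusted p = 0.23), Cd86 at 370 and 206 CPM (log2 FC 0.14 ± 0.20, adjusted p = 0.68) and Cd274 at 277 and 366 CPM (log2 FC 0.17 ± 0.18, adjusted p = 0.56). Cd80 was past the threshold, and higher in members, under 4 of the alternatives, at 1.52 after thinning.

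Genes of class I presentation and of IL-15 were lower in members than in the other mature DCs. Of 31 class I genes 21 were lower and 3 higher, beside 9.48% lower and 8.62% higher over all genes. Nlrc5 was at 874 and 1076 CPM in the others (log2 FC -2.04 ± 0.16, adjusted p = 9.3e-06), the peptide transporter Tap1 at 422 and 369 CPM against 223 and 171 CPM in members (log2 FC -1.23 ± 0.14, adjusted p = 0.00016), and Il15ra at 251 and 278 CPM (log2 FC -3.42 ± 0.27, adjusted p = 1.1e-05, with -2.80 from replicate 1 and -4.05 from replicate 2 alone). Serpinb9, an inhibitor of granzyme B, was at 102 and 107 CPM in members and 755 and 990 CPM in the others (log2 FC -3.31 ± 0.18, adjusted p = 2.3e-06). Cholesterol synthesis genes were lower for 13 of 25 and higher for 0, whereas against cDC2s 2 of 25 were higher and 0 lower. Idi1, an isomerase of the isoprenoid steps, was at 43.4 and 53.9 CPM against 186 and 116 CPM (log2 FC -1.79 ± 0.24, adjusted p = 0.00035). Tap1 lost the call after thinning, at -0.63. Bcl2l11 was at 481 and 348 CPM in the others (log2 FC -2.59 ± 0.18, adjusted p = 5.8e-06).

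Among the 12 genes with the largest fall against the other mature DCs, Zdhhc14, a palmitoyltransferase, was at 23.3 and 21.1 CPM in members and 383 and 413 CPM in the others (log2 FC -4.41 ± 0.22, adjusted p = 2.3e-06). Lima1, an actin-binding protein, was at 63.6 and 35.7 CPM against 970 and 586 CPM (log2 FC -4.17 ± 0.28, adjusted p = 5.4e-06), and Gclc, which makes the first step to glutathione, at 170 and 67.7 CPM against 2310 and 1215 CPM (log2 FC -4.09 ± 0.34, adjusted p = 1.4e-05). These 3 genes were picked by their large fold change and for the same direction in both samples, so their separation is a description. Net1, a guanine nucleotide exchange factor of small GTPases, was at 51.2 and 31.3 CPM against 471 and 315 CPM (log2 FC -3.45 ± 0.26, adjusted p = 9.3e-06). In the list of actin and motility genes 18 of 35 were lower and 5 higher, beside 9.48% lower and 8.62% higher over all genes.

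Class II genes and genes of innate sensing that were called against the other mature DCs were more often higher than lower in members. Of 25 class II genes 11 were higher, 4 lower and 10 not called, beside 8.62% higher and 9.48% lower over all genes. Ciita was at 181 and 146 CPM in the others (log2 FC 1.90 ± 0.12, adjusted p = 3.5e-06), and H2-DMb2, a chain of the peptide-exchange factor H2-M, at 648 and 686 CPM in members against 116 and 152 CPM (log2 FC 2.04 ± 0.16, adjusted p = 1e-05). H2-Aa itself was not called (6623 and 8493 CPM in the others, log2 FC 0.26 ± 0.14, adjusted p = 0.24). Of 35 Toll-like receptors and adaptors 14 were higher, 2 lower and 19 not called. Tlr1, which pairs with TLR2 to sense lipopeptides, was at 141 and 173 CPM against 56.9 and 75.2 CPM (log2 FC 0.96 ± 0.21, adjusted p = 0.0079), and Nlrp3, the inflammasome sensor, at 87.6 and 114 CPM against 5.17 and 12.5 CPM (log2 FC 3.10 ± 0.37, adjusted p = 0.00018, with 3.88 from replicate 1 and 2.91 from replicate 2 alone). Gpr183 was at 168 and 131 CPM in the others (log2 FC 1.68 ± 0.14, adjusted p = 1.4e-05). Genes induced by cell handling moved as well, 9 of 25 higher and 2 lower, with Fos at 1070 and 1451 CPM against 321 and 349 CPM (log2 FC 1.67 ± 0.21, adjusted p = 0.00027), and their part in the other differences was not tested.

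Among the 12 genes with the largest rise over the other mature DCs were Cd7, Nlrp3 and Cyp4f16, a cytochrome P450 gene at 258 and 257 CPM in members and 41.4 and 18.1 CPM in the others (log2 FC 3.04 ± 0.22, adjusted p = 7.5e-06). Lyz2, the lysozyme gene of myeloid cells, was at 185 and 512 CPM against 38.8 and 32.0 CPM (log2 FC 3.10 ± 0.71, adjusted p = 0.011, with 2.10 from replicate 1 and 3.74 from replicate 2 alone). This rested on few cells, since 3 members of each sample held 206 of 238 and 573 of 704 of its UMIs, and the call was lost when members with any Ccl22 were left out (2.88). Vegfa, the vascular growth factor, stood at 60 and 104 UMIs in members and 2 and 0 in the others, and was at 46.5 and 75.7 CPM in members against 14.5 and 14.5 CPM in cDC2s (log2 FC 2.15 ± 0.44, adjusted p = 0.0047). In replicate 2, 1 member held 43 of the 104 UMIs, and without it the level was 45.1 CPM.

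**Figure D5:**
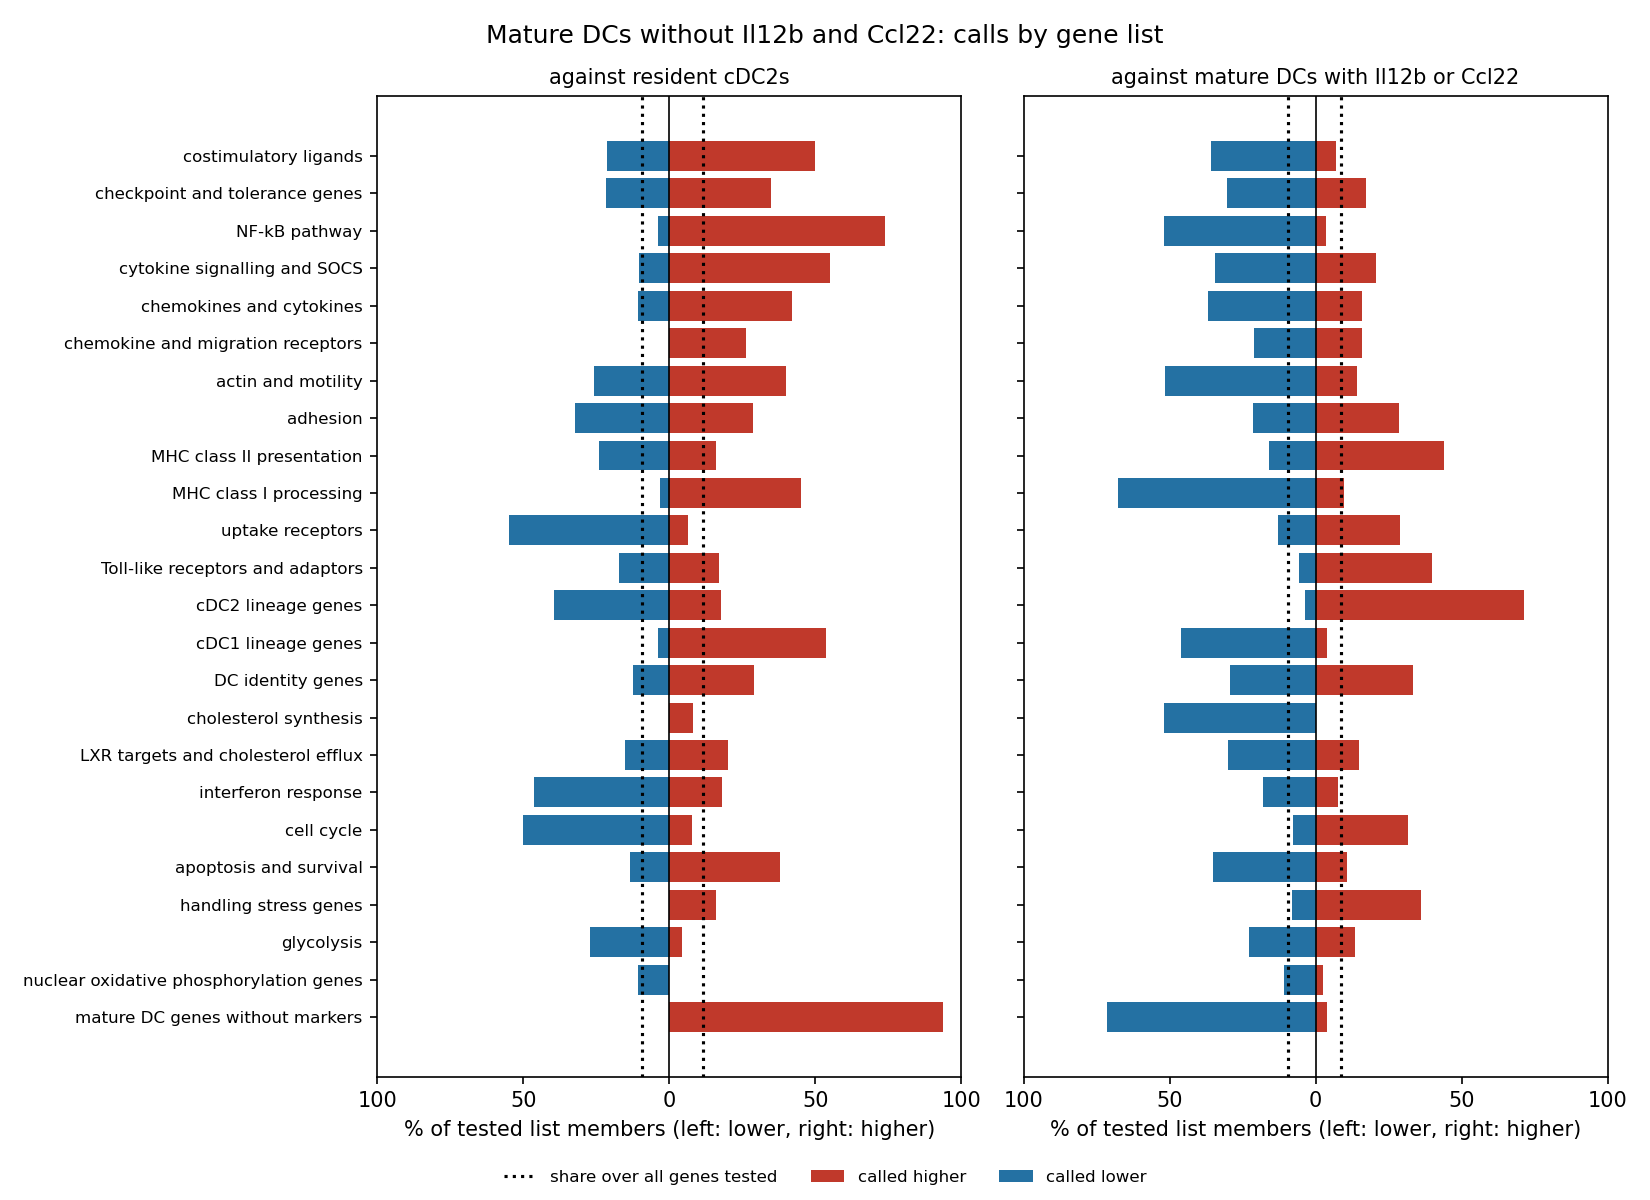
Share of the tested genes of each of 24 lists called higher (right, red) or lower (left, blue) in members, against resident cDC2s (left panel) and against mature DCs with Il12b or Ccl22 (right panel); dotted lines mark the share over all genes tested. The mature DC list, without the 3 markers, is higher for 46 of 49 genes on the left and lower for 35 of 49 on the right, and the cDC2 lineage list is higher for 20 of 28 on the right.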

How the data were processed

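Raw UMI counts per cell and gene were used as deposited, 1 table per sample. Per the labels and the study's methods, the authors made these counts with the BD Rhapsody WTA pipeline 1.12.1 on GRCm38, with intronic reads counted, putative cells called and sample tags resolved, and UMI errors corrected; each table holds 27032 genes. The authors' Seurat filters were tried as an alternative. Cells were gated on counts and summed per sample and group. The sums were fitted in edgeR 4.0.16 (R 4.3.3; TMM, filterByExpr) as 1 model with cell group as its term, and DESeq2 1.42.0 was an alternative. SEs were taken as the size of a log2 fold change over the root of its F statistic. Thinning drew 5000 UMIs from each cell and left out shallower cells. Doublets were marked with Scrublet in scanpy 1.11.5. The fit was tested on simulated counts with 200 changed genes. Of changes of 2-fold it recovered 110 against cDC2s, 110 against cDC1s and 50 against the other mature DCs, with 15, 11 and 2 false calls. Of changes of 4-fold it recovered 162, 155 and 135 in the same order, with 7, 14 and 6 false calls. A gene that was not called may therefore still differ.

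The members and gene lists were chosen with earlier results of these data known. Named genes were, per comparison, up to 12 in each direction with the largest fold change among called genes with at least 50 CPM in both sums of the higher group, up to 3 per list and direction, and the markers. Of the 98 pairs of gene and comparison given with a fold change, 61 follow this rule, and the other 37 were chosen after their values were seen. Some values are not reported here. Whether the samples came from separate mice is not stated, so p-values measure only the spread between these samples. Sums with the same replicate number come from 1 sample. Their deviations correlated at 0.0111 to 0.0681 over 12188 genes.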

Additional observations from a re-analysis of the deposited data

How the results depend on the processing

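The number of genes called between the 2 kinds of mature DC fell from 2205 to 1439 (596 higher, 843 lower) when only these 2 groups were fitted and to 802 (413 higher, 389 lower) when cells were thinned to 5000 UMIs; the cause was not tested. The count stayed within 1.5 times in every other alternative and comparison that has a test. The replicate block gave 2626 calls against cDC2s, 4538 against cDC1s and 2041 against the other mature DCs. The share of members moved from 3.81% to 2.69% on thinning and to 2.38% with the stricter gate on Ccr7 and Fscn1, both of which ask more of each cell; leaving out a replicate gave 3.45% to 4.18%. With 1 sample left there were no residual degrees of freedom, so leaving out a replicate gave values without a test.

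Some changes that were not called also changed sign. Against cDC2s these were Cd4 (-0.081 after thinning, 0.231 and -0.169 from replicates 1 and 2), Dtx1 (0.175 after thinning, 0.030 with the stricter gate), Irf4 (0.138 and -0.044 from replicates 1 and 2) and H2-Aa (-0.052 by library size alone, -0.064 with no filter on low counts, -0.222 after thinning, -0.057 and -0.071 from replicates 1 and 2). Against the other mature DCs they were Cd274 (0.666 and -0.168) and Cd86 (-0.256 and 0.597), both from replicates 1 and 2 alone. The alternatives also brought Cd86 against cDC2s, and Cd80 and H2-Aa against the other mature DCs, past the threshold.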
